A study of Mus musculus with 8 samples.

Results

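Chemokine ligands were followed in immune cells of the mouse posterior eye after laser injury. The genes were chosen by symbol: every gene row beginning with Ccl or Cxcl and a digit, together with Pf4, Ppbp, Xcl1 and Cx3cl1. This gave 46 rows of 32285, or 40 symbols, since Ccl19, Ccl21a, Ccl21b, Ccl21c and Ccl27a each stood under more than 1 gene identifier. Ccl19 and Ccl27a had UMIs on 1 row each, and every Ccl21a, Ccl21b and Ccl21c row had 0. The counts do not show how reads shared by near-identical copies were assigned. A ligand was described where its row held 20 or more UMIs (unique molecular identifiers, each counting 1 captured RNA molecule) over all kept cells, which left 31 rows. Of the other 15 rows, 11 had 0 UMIs, while Cxcl17 had 16, Ccl19 had 15, Ccl28 had 9 and Ccl20 had 1. Of the 31 ligands described, 22 had 200 or more UMIs and 9 had fewer.

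The study asked which macrophages take part in laser-induced choroidal neovascularization (CNV), a mouse model in which laser burns break the membrane under the retinal pigment epithelium and new vessels grow from the choroid. Live CD45+ cells were sorted from pooled posterior eye cups of female mice aged 10 to 12 weeks and processed for CITE-seq, in which RNA and antibody-derived tags (ADT) are read from the same cells. The 4 conditions were Nr4a1-/- laser (day 3 after 8 burns per eye), Nr4a1-/- control (no laser), WT laser and WT control, with 1 library of pooled mice each: 22 mice for a control pool and 11 or 12 for a laser pool. Nr4a1 encodes a nuclear receptor that non-classical monocytes need, and the knockout is carried by all cells of the animal. The sample labels gave C57BL/6J for all mice, whereas the study's methods named the knockout stock B6;129S2-Nr4a1tm1Jmi/J, so genotype and strain background cannot be told apart. With 1 library per condition there was no replicate of a condition, and differences between conditions are given as ratios with intervals that cover counting error only.

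Chemokines are small secreted proteins that direct leukocytes along a gradient by binding G protein-coupled receptors. CCR2 ligands (Ccl2, Ccl7, Ccl8, Ccl12) draw monocytes, Ccl3, Ccl4 and Ccl5 draw macrophages and activated T cells, CXCR2 ligands (Cxcl1, Cxcl2, Cxcl3, Cxcl5, Ppbp) draw neutrophils, and CXCR3 ligands (Cxcl9, Cxcl10) draw T and NK cells. In experimental CNV, the CCL2 and CCR2 axis is known for bringing monocytes into the eye.

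After removal of cells with fewer than 200 or more than 5000 detected genes or with over 15% mitochondrial UMIs, 11223 cells of 11624 remained, with 1649 in Nr4a1-/- laser, 2020 in Nr4a1-/- control, 3791 in WT laser and 3763 in WT control. The Nr4a1-/- laser library was the shallowest, with a median of 3676 UMIs per cell, against 5202 to 7618 in the others, and libraries shared 1 to 7 cell barcodes per pair. Nr4a1 itself was at 54.9 and 90.7 CPM (UMIs of the gene in each 1000000 UMIs of the cells counted) in Nr4a1-/- laser and Nr4a1-/- control cells, against 278 and 310 CPM in WT laser and WT control cells. Reads of Nr4a1 thus remained in both libraries labelled Nr4a1-/-, at a lower level than in WT. Cells were placed in lineages from marker genes that included no ligand, and 1644 cells that met no gate were left out of the lineage values. ADT counts differed between libraries within a lineage, in the order Nr4a1-/- laser, Nr4a1-/- control, WT laser and WT control. Ly-6G averaged 8.02, 1851, 24.9 and 32.1 UMIs per cell in neutrophils, and Ly-6C averaged 938, 11.2, 99.75 and 13.3 in classical monocytes. P2Ry12 averaged 81.6 in WT laser microglia and 0.670 to 0.685 in the other 3 libraries, where it does not check the microglia gate. CD3 averaged 10.8 in WT laser T cells and 0.726 to 2.03 in the others, and NK-1.1 averaged 0.766 over all NK cells, so neither checks its gate in every library.

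The 46 rows together held 597319 UMIs, or 0.766% of all UMIs in kept cells. That share was 0.686% in Nr4a1-/- laser, 0.671% in Nr4a1-/- control, 0.872% in WT laser and 0.694% in WT control cells. A few genes carried most of it: Ccl5 had 128999 UMIs, Cxcl2 had 116663 and Ccl4 had 97371, which made 57.4% of the total, and the 10 highest ligands made 92.5%. Resident macrophages, gated on genes of the perivascular and choroidal type such as Mrc1, Lyve1 and Folr2, were 9.28% of the cells and held 33.3% of the ligand UMIs. Microglia, the macrophages of the retina, were 10.3% of the cells and held 12.7%. Cells of 2000 or more UMIs were thinned to 2000 and shallower cells were left out, here and wherever thinned values are given. In Nr4a1-/- laser this kept 65 of 141 B cells and 171 of 194 resident macrophages. Resident macrophages then carried RNA of 6.97, 6.10, 6.74 and 6.39 different ligands on average in Nr4a1-/- laser, Nr4a1-/- control, WT laser and WT control. A microglial cell carried 3.55, 2.87, 3.88 and 3.34 in the same order, and a B cell, a type that should lack most of them, 0.215, 0.255, 0.460 and 0.257. These B cell values, read as background RNA, were highest in WT laser. By summed ligand level B cells were highest in Nr4a1-/- laser, at 403 CPM. They were at 240 CPM in Nr4a1-/- control, 249 CPM in WT laser and 263 CPM in WT control. Ccl5 gave 73 UMIs in the Nr4a1-/- laser B cells. Its laser over control ratio in Nr4a1-/- B cells was 3.55, and 0.861 without the top cell of each library.

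**Figure D1:**
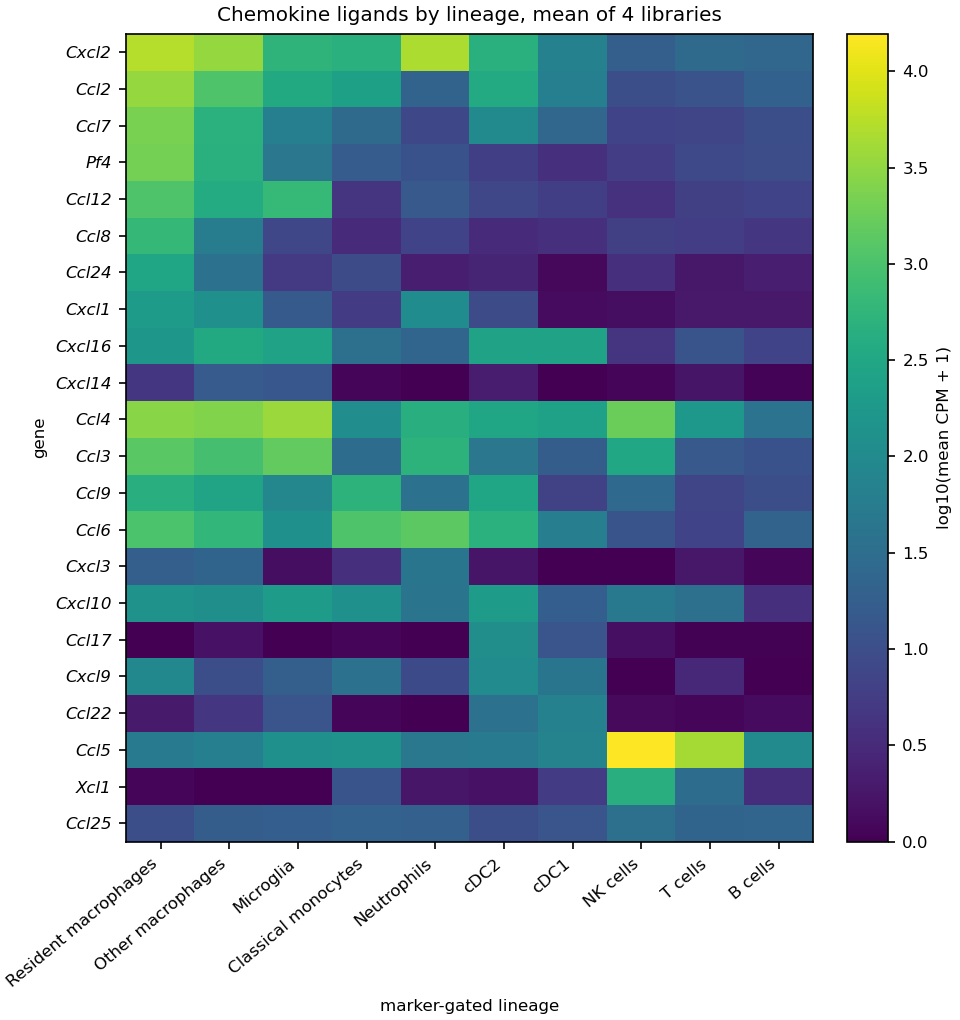
Mean level of the 22 ligands with 200 or more UMIs (rows) in the 10 lineages with 20 or more cells in each library (columns), as log10 of the mean CPM over the 4 libraries plus 1, from dark (low) to yellow (high). Resident macrophages are the brightest column in the rows of Ccl2, Ccl7, Pf4, Ccl8 and Ccl24, and NK cells in those of Ccl5 and Xcl1, with Ccl5 in NK cells at a mean of 15653 CPM.

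Each lineage was set against the mean of the other lineages with edgeR's quasi-likelihood test on UMI sums per lineage and library, with the library as a block; a ligand was called higher at an adjusted p of 0.05 or less and a difference of at least 2-fold. The 4 libraries stood in as replicates, although they differed in laser and genotype. Of the 31 ligands, 22 had enough counts for this test. Here and below, lineages are ranked among the 10 with 20 or more cells in each library. Basophils and mast cells, with 41 cells in all, were not ranked, and their levels are given at the end. In resident macrophages 17 of the 22 were higher, where 17.9% of the 10558 genes tested were. In other macrophages, which carried general macrophage genes but met no narrower gate, 16 were higher (all genes 16.0%). In cDC2 9 were higher (all genes 11.6%), in microglia 8 (19.7%), in classical monocytes 7 (11.8%), in neutrophils 5 (16.0%), in cDC1 4 (11.3%), in NK cells 4 (12.6%), in T cells 2 (14.5%) and in B cells 0 (14.3%). The share of ligands higher was thus above that of all genes in every lineage but T cells and B cells. Both macrophage groups had the most ligands higher. In B cells 14 of the 22 were lower, as were 1879 of the 10558 genes.

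The CCR2 ligands lie in a row on chromosome 11 (GRCm38), with Ccl2 at chr11:82035571-82037453 and Ccl8 at chr11:82115185-82116799, and they were led by resident macrophages. Ccl2, the main monocyte attractant, was at 2424, 4182, 3982 and 2877 CPM in resident macrophages of Nr4a1-/- laser, Nr4a1-/- control, WT laser and WT control eyes. The next lineage, other macrophages, spanned 732 to 1420 CPM and did not overlap (edgeR adjusted p = 7.35e-24 for resident macrophages against the mean of the others). Ccl2 RNA was found in 84.5%, 79.4%, 93.8% and 84.7% of resident macrophages, against 2.84%, 3.69%, 11.7% and 4.65% of B cells in the same libraries, whose median depth was 1965 to 4249 UMIs and that of resident macrophages 4688 to 11465. Ccl7, which binds CCR1, CCR2 and CCR3, averaged 2283 CPM (range 1880 to 2587) in resident macrophages and 471 CPM (321 to 680) in other macrophages, again without overlap (adjusted p = 3.48e-27). Its RNA sat in the same cells as that of Ccl2: at 2000 UMIs per cell, Ccl7 was seen in 81.2%, 75.9%, 76.7% and 78.4% of resident macrophages with Ccl2, against 48.5%, 21.3%, 20.6% and 31.7% of those without, in Nr4a1-/- laser, Nr4a1-/- control, WT laser and WT control cells. Ccl12 was shared with microglia, at 850 to 1284 CPM in resident macrophages (adjusted p = 3.74e-28) and 411 to 889 CPM in microglia (adjusted p = 3.74e-25), and these ranges overlapped. Ccl8 was the ligand most confined to resident macrophages among those of the cluster, with 87.2% of its UMIs there.

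Pf4, Ccl24 and Ccl26 were also led by resident macrophages. Pf4, known as platelet factor 4 and used as a marker of perivascular macrophages, was at 1820, 2786, 1521 and 2257 CPM there in Nr4a1-/- laser, Nr4a1-/- control, WT laser and WT control eyes, against 374 to 553 CPM in other macrophages (adjusted p = 1.07e-28). Ccl24, a ligand of the eosinophil receptor CCR3, was at 248, 368, 195 and 333 CPM in the same order, with the next lineage at 15.8 to 46.4 CPM (adjusted p = 2.77e-29). Both were lower in laser than in control eyes in each genotype: the laser ratio of Pf4 was 0.653 (95% interval 0.617 to 0.692) in Nr4a1-/- and 0.674 (0.650 to 0.699) in WT, and that of Ccl24 was 0.673 (0.574 to 0.788) and 0.586 (0.531 to 0.647). The summed level of the 7 resident macrophage markers in these cells went the same way, at 3860 and 4636 CPM in Nr4a1-/- laser and control and 3047 and 4651 CPM in WT laser and control, and its part in the ratios was not tested. Ccl26, which also binds CCR3, was rare but placed alike, at 10.2, 7.98, 5.40 and 6.91 CPM, with 92.3% of its 65 UMIs in resident macrophages.

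Microglia shared Ccl3 and Ccl4, attractants of macrophages and T cells, with resident macrophages. Ccl4 was at 3024, 2970, 4174 and 4502 CPM in microglia of Nr4a1-/- laser, Nr4a1-/- control, WT laser and WT control eyes (adjusted p = 8.04e-15), and at 1581, 4524, 2081 and 3226 CPM in resident macrophages. Ccl3 was at 1035, 1457, 1579 and 2114 CPM in microglia (adjusted p = 3.40e-16), against 715, 2353, 815 and 1441 CPM in resident macrophages, so neither order of lineages was clear of the spread between libraries. Ccl3 and Ccl4 occurred in the same microglia: at 2000 UMIs per cell, Ccl4 was found in 87.7%, 79.4%, 91.5% and 85.6% of microglia with Ccl3 and in 51.9%, 53.7%, 56.9% and 50% of those without. In both genotype pairs microglia of Nr4a1-/- eyes had less of both, with Ccl4 ratios of 0.724 (0.692 to 0.759) in laser and 0.660 (0.638 to 0.682) in control eyes, and Ccl3 ratios of 0.655 (0.605 to 0.709) and 0.689 (0.657 to 0.723), all short of 2-fold. The summed immediate-early and dissociation stress list was at 11728 CPM in Nr4a1-/- and 10377 CPM in WT laser microglia and 25661 CPM in Nr4a1-/- and 21486 CPM in WT control microglia.

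Ccl6 and Ccl9, mouse ligands of CCR1, were spread over several myeloid lineages. Ccl6 was at 672, 2109, 1098 and 1564 CPM in neutrophils (adjusted p = 3.66e-20), at 958, 1172, 1353 and 969 CPM in classical monocytes, and at 1334, 699, 1312 and 707 CPM in resident macrophages of Nr4a1-/- laser, Nr4a1-/- control, WT laser and WT control eyes. In resident macrophages the laser ratio was close in both genotypes, at 1.91 (1.75 to 2.08) in Nr4a1-/- and 1.85 (1.76 to 1.96) in WT, just under the 2-fold limit used for calls. Classical monocytes carried Ccl6 too, and their 7 markers moved the same way in the resident macrophage gate, at 397 and 114 CPM in Nr4a1-/- laser and control and 466 and 171 CPM in WT laser and control; their part in the ratio was not tested. In neutrophils the Ccl6 ratio ran the other way, at 0.318 (0.247 to 0.406) in Nr4a1-/- and 0.702 (0.629 to 0.783) in WT. Among the 10 lineages ranked, Ccl9 had its highest mean in classical monocytes, at 497, 547, 478 and 506 CPM (edgeR adjusted p = 4.36e-22). It was found there in 81.9% to 93.5% of cells. Resident macrophages came next for Ccl9, at a mean of 443 CPM (range 363 to 545, adjusted p = 5.37e-22), and the ranges overlapped.

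Ccl5 and Xcl1 were led by NK cells. Ccl5, an attractant of T cells and monocytes, was at 16814, 16870, 12828 and 16100 CPM in NK cells of Nr4a1-/- laser, Nr4a1-/- control, WT laser and WT control eyes (adjusted p = 1.40e-21). T cells had 4993, 3351, 4844 and 3915 CPM (adjusted p = 1.19e-16), below every NK value. The share of T cells with Ccl5 RNA was higher in laser eyes of both genotypes, at 47.0% in Nr4a1-/- laser and 32.7% in Nr4a1-/- control, and at 50.5% in WT laser and 33.0% in WT control. Thinned to 2000 UMIs it was 45.6% and 27.8% in Nr4a1-/-, and 46.1% and 29.4% in WT. NK cell markers moved with it in the T cell gate, at 1028 and 618 CPM in Nr4a1-/- laser and control and 1531 and 706 CPM in WT laser and control, summed over 7 genes, and their part in the result was not tested. Xcl1, whose receptor XCR1 marks cDC1, was at 318, 440, 505 and 449 CPM in NK cells (adjusted p = 5.60e-22), against 20.5 to 43.7 CPM in T cells. Ccl25, a CCR9 ligand known from thymus and gut, had low levels, at 23.4 to 46.2 CPM in NK cells and 20.1 to 24.9 CPM in B cells. These ranges overlapped, and Ccl25 was called higher in no lineage.

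Dendritic cells carried the CCR4 ligands. Ccl17 was at 78.5, 134, 79.4 and 171 CPM in cDC2 of Nr4a1-/- laser, Nr4a1-/- control, WT laser and WT control eyes (adjusted p = 9.87e-24), and the next lineage, cDC1, lay at 5.42 to 17.4 CPM. Its laser ratio was 0.586 (0.417 to 0.816) in Nr4a1-/- and 0.464 (0.371 to 0.582) in WT. Ccl22 was at 29.8, 42.1, 24.9 and 177 CPM in cDC1 (adjusted p = 2.00e-15) and at 12.8, 28.7, 56.0 and 52.6 CPM in cDC2, where the ranges overlapped. Migratory DC, which carry Ccr7 and move to lymph nodes, reached 20 cells in WT laser alone (45 cells), with Ccl5 at 6076 CPM, Cxcl16 at 907 CPM and Ccl22 at 182 CPM. Cxcl16, a membrane-bound ligand of CXCR6, was spread over macrophages and DC, at 326, 442, 286 and 367 CPM in other macrophages (adjusted p = 8.07e-17) and 313, 176, 352 and 204 CPM in microglia, where its laser ratio was 1.78 (1.48 to 2.13) in Nr4a1-/- and 1.72 (1.56 to 1.90) in WT. Cxcl14, a ligand with no firmly assigned receptor, was at 82.8 CPM in Nr4a1-/- laser and 52.3 CPM in WT laser in macrophages gated on Spp1 and Gpnmb, which had 12 and 14 cells in the control libraries, too few for a value.

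The CXCR2 ligands Cxcl1, Cxcl2 and Cxcl3 are neighbours on chromosome 5, with Cxcl2 at chr5:90903871-90905938 (GRCm38). Their promoters are printed because all 3 windows hold the same kind of motif within 100 bases of the start. The sequences are RefSeq's (GRCm38.p6, plus strand), 250 bases before to 50 after each start: Cxcl1 at chr5:90890995-90891294, Cxcl2 at chr5:90903649-90903948 and Cxcl3 at chr5:90785851-90786150. Capitals mark matches to the NF-kB consensus, searched on both strands.
Cxcl1: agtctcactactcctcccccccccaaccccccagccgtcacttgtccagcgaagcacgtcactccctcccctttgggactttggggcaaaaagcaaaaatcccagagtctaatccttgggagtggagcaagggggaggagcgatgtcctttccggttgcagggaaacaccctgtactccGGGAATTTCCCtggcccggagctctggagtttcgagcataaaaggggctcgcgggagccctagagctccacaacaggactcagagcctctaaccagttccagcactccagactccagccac
Cxcl2: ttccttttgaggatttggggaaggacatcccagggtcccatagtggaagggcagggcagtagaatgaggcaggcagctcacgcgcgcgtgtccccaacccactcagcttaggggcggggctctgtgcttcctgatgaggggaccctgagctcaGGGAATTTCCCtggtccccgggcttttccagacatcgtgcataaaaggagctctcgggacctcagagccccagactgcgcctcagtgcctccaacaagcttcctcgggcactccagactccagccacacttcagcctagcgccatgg
Cxcl3: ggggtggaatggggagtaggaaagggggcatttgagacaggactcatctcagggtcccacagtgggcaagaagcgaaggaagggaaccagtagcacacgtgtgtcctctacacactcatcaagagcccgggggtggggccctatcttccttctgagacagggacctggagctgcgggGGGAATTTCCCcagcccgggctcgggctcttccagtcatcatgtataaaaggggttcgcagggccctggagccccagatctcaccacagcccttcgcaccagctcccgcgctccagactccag
The match began 71 bases before the start of Cxcl1, 97 before that of Cxcl2 and 73 before that of Cxcl3, and each overlapped a match on the other strand shifted by 1 base. Of all 32851 promoters of this length, 8.46% held such a match, and 6 of the 22 ligands with a promoter in the table did (Ccl1, Ccl9, Cxcl1, Cxcl2, Cxcl3 and Cxcl10). A match describes the letters and not a bound site.

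Cxcl2 was at 3876, 5244, 7453 and 4845 CPM in resident macrophages of Nr4a1-/- laser, Nr4a1-/- control, WT laser and WT control eyes (adjusted p = 3.94e-27) and at 7637, 3421, 4356 and 3695 CPM in neutrophils (adjusted p = 5.97e-26), and neither lineage was clear of the other. Cxcl1 was at 98.9, 300.2, 289 and 113 CPM in resident macrophages (adjusted p = 2.08e-15). WT laser and Nr4a1-/- control were thus the high libraries and Nr4a1-/- laser the lowest. Cxcl3 was at 6.12, 29.5, 26.8 and 7.35 CPM in the same cells and followed Cxcl1. Cxcl1 RNA was mostly in cells that also had Cxcl2: at 2000 UMIs per cell it was found in 13.2%, 19.6%, 20.1% and 13.0% of resident macrophages with Cxcl2, against 0%, 0%, 1.72% and 5.43% of those without, the last being 5 of 92 WT control cells. In neutrophils Cxcl1 stood out in Nr4a1-/- laser alone, at 396 CPM from 43 UMIs in 5 of 49 cells, against 0 UMIs in Nr4a1-/- control, 22.3 CPM in WT laser and 9.12 CPM in WT control. Cxcl3 was called higher in neutrophils (adjusted p = 2.13e-10), at 46.0, 9.56, 75.1 and 36.5 CPM from 3 to 37 UMIs.

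**Figure D2:**
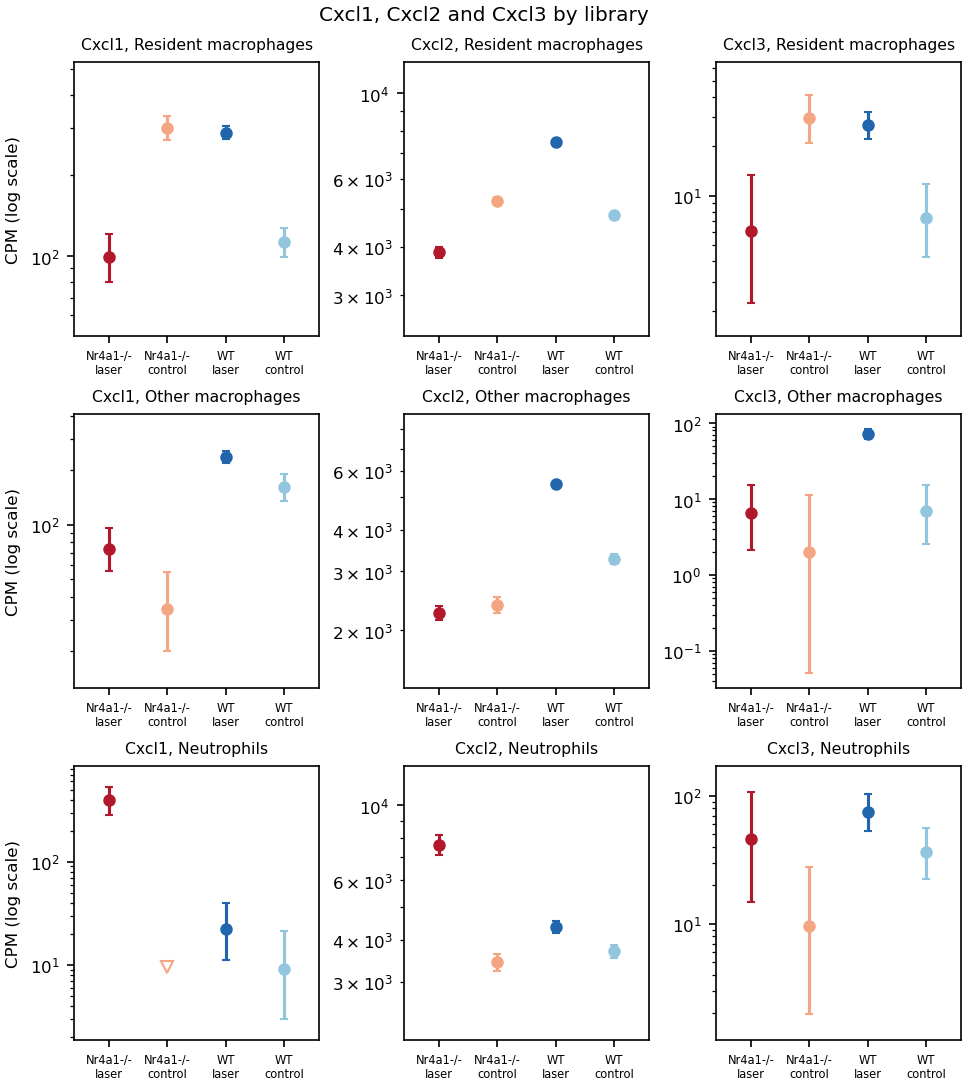
Levels of the CXCR2 ligands in resident macrophages, other macrophages and neutrophils by library, in CPM on a log axis, with 95% Poisson intervals of the count; an open triangle is a library with 0 UMIs, drawn at the level of 3 UMIs. Cxcl1 in resident macrophages sits at 98.9 CPM in Nr4a1-/- laser, 300.2 in Nr4a1-/- control, 289 in WT laser and 113 in WT control.

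The CXCR3 ligands Cxcl9 and Cxcl10 are also adjacent on chromosome 5. Their RefSeq promoters (GRCm38.p6, minus strand, 250 bases before to 50 after the start, Cxcl10 at chr5:92348840-92349139 and Cxcl9 at chr5:92328030-92328329) are shown because both ligands were lower in Nr4a1-/- cDC2. Capitals mark matches to the NF-kB consensus and to a paired GAAA (GAAA, any 2 bases, then GAAA again), of the kind that interferon regulatory factors bind, both searched on both strands.
Cxcl10: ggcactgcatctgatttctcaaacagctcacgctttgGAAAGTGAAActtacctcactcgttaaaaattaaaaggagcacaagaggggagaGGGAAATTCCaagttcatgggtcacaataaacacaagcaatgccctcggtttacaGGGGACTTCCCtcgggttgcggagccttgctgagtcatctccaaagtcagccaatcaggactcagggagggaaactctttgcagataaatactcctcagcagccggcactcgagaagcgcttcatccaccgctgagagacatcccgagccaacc
Cxcl9: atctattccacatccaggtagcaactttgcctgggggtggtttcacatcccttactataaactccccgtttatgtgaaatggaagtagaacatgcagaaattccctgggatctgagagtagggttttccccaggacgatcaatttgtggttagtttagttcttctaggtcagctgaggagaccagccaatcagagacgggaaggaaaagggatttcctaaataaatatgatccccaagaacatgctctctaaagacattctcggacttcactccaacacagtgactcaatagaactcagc
In Cxcl10 the paired GAAA began 213 bases before the start and the NF-kB matches 159 and 104 bases before it. The Cxcl9 window held neither set of letters. The paired GAAA was present in 3.44% of all promoters and in 2 of the 22 ligands matched, Cxcl10 and Cxcl14.

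Cxcl10 was spread over myeloid cells. It averaged 203 CPM in cDC2 (range 49.9 to 416) and 203 CPM in microglia (140 to 296, adjusted p = 5.58e-09), with T cells at 7.81 to 85.3 CPM and B cells at 0.476 to 4.08 CPM. Cxcl9 averaged 106 CPM in cDC2 (range 19.97 to 280.1, edgeR adjusted p = 6.31e-07) and 91.5 CPM in resident macrophages (7.14 to 162, adjusted p = 3.00e-07). These ranges overlapped, and Cxcl9 was also called higher in cDC1 and in classical monocytes. It came from few cells: 176 of 11223 had any, and 1 cell held 8.26% of its UMIs.

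Laser was set against control within each genotype and lineage as a ratio of CPM, and a ligand was called where the ratio was at least 2-fold with 20 or more UMIs in the library with the higher level; only calls made in the same direction in both genotypes are described. Of 97 ligand and lineage pairs that could be tested in both, 8 were higher after laser in both genotypes and 4 were lower. Over all genes, 1.15% of 50507 pairs were higher and 1.04% lower.

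**Figure D3:**
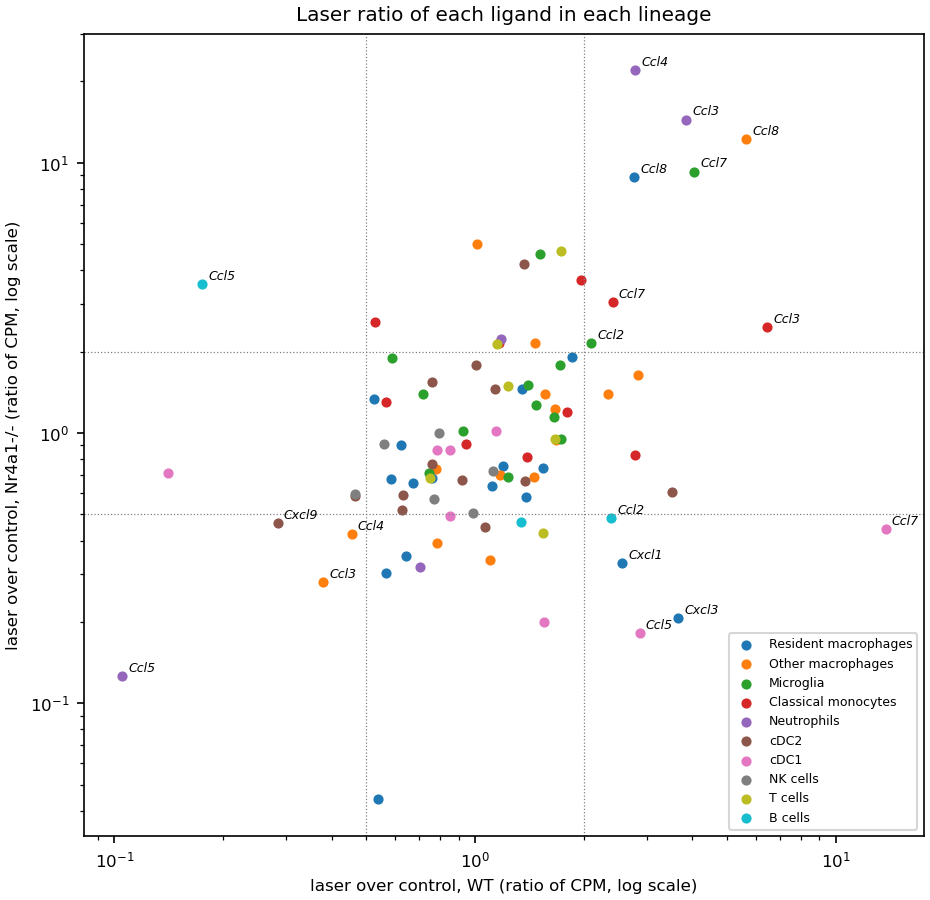
Laser over control ratio of each ligand and lineage pair in Nr4a1-/- (y axis) against WT (x axis), both on log axes, with dotted lines at 0.5 and 2 colours for lineages and names at the pairs called in both genotypes, in the same or in opposite directions; 1 pair with a ratio of 0 is not drawn. Ccl4 in neutrophils is the highest named point on the y axis, at 21.99 in Nr4a1-/- and 2.78 in WT.

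CCR2 ligands made 5 of the 8 that were higher. In microglia, Ccl2 was at 471 CPM in Nr4a1-/- laser and 220 CPM in Nr4a1-/- control, and at 495 CPM in WT laser and 236 CPM in WT control. Its laser ratio was 2.14 (95% interval 1.84 to 2.50) in Nr4a1-/- and 2.10 (1.92 to 2.30) in WT, with RNA in 28.8% and 18.3% of Nr4a1-/- laser and control microglia and 35.6% and 23.2% of WT laser and control microglia at 2000 UMIs per cell. In B cells, read as background, the same share was 1.54% and 1.58% in Nr4a1-/- laser and control and 5.64% and 1.78% in WT laser and control, so in WT it moved the same way; median depths were 3994 to 9243 UMIs in microglia and 1965 to 4249 in B cells. Ccl7 in microglia was at 127 and 13.7 CPM in Nr4a1-/- laser and control and at 93.2 and 23.03 CPM in WT laser and control. That was a ratio of 9.28 (5.80 to 15.4) in Nr4a1-/- and 4.05 (3.10 to 5.37) in WT, and both laser libraries lay above both control libraries for either ligand. The Ccl2 call was lost without the upper limit on detected genes, where the Nr4a1-/- ratio was 1.5, and after thinning to 2000 UMIs, where the WT ratio was 1.68. Classical monocyte markers moved with them, at 138 and 17.9 CPM in Nr4a1-/- laser and control microglia and 94.5 and 23.03 CPM in WT laser and control microglia, summed over 7 genes of which 4 to 7 had a UMI, and Ccr2 itself was at 75.6 and 5.38 CPM and at 43.2 and 5.04 CPM. The immediate-early and dissociation stress list ran the other way, with 8 of its 14 genes lower after laser in Nr4a1-/- and 7 in WT, where 7.54% and 3.604% of all genes tested in microglia were lower. The part of either list in the ratios was not tested.

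Ccl8, a CCR2 ligand and in mice also a CCR8 ligand, was higher after laser in resident and in other macrophages. In resident macrophages it was at 954 CPM in Nr4a1-/- laser and 108 CPM in Nr4a1-/- control, and at 1020 CPM in WT laser and 370 CPM in WT control. The laser ratio was 8.85 (7.39 to 10.7) in Nr4a1-/- and 2.75 (2.56 to 2.97) in WT. The share of resident macrophages with Ccl8 RNA at 2000 UMIs per cell was 33.9% and 10.97% in Nr4a1-/- laser and control and 33.1% and 21.4% in WT laser and control, against 0%, 0.450%, 2.97% and 0.686% of B cells in Nr4a1-/- laser, Nr4a1-/- control, WT laser and WT control. Unthinned, those shares were 38.1%, 18.1%, 47.3% and 31.2% of resident macrophages. In other macrophages Ccl8 was at 98.6 and 8.08 CPM in Nr4a1-/- and at 104.5 and 18.5 CPM in WT, laser before control, and the control values rested on 4 and 16 UMIs. Ccl2 and Ccl7 of the same chromosomal cluster did not follow Ccl8 in resident macrophages: the laser ratio of Ccl2 was 0.580 (0.552 to 0.608) in Nr4a1-/- and 1.38 (1.35 to 1.42) in WT, and that of Ccl7 was 0.752 (0.710 to 0.797) and 1.19 (1.16 to 1.23). Ccr2 was at 501 and 107 CPM in resident macrophages of Nr4a1-/- laser and control and at 534 and 91.6 CPM in WT laser and control, and the 7 classical monocyte markers summed to 397 and 114 CPM and to 466 and 171 CPM. The part of such cells in the Ccl8 result was not tested.

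**Figure D4:**
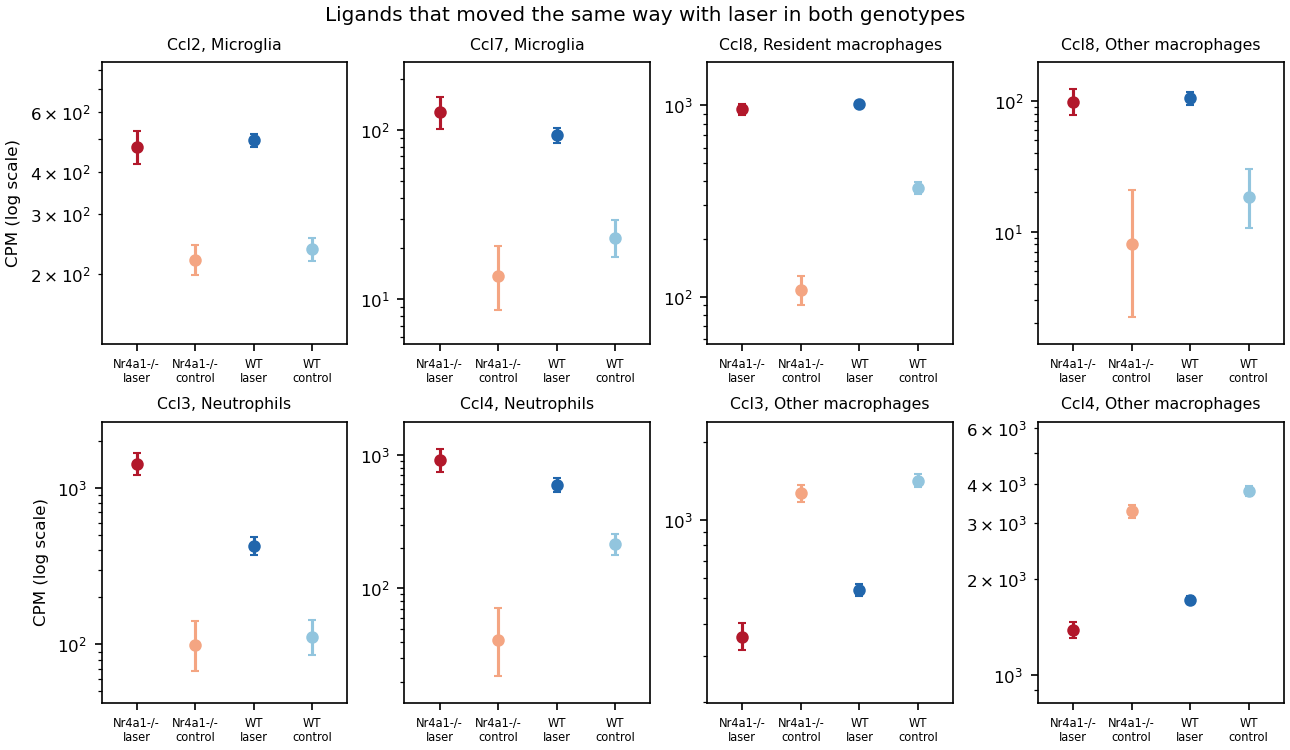
Levels by library of 8 of the 12 ligand and lineage pairs called the same way after laser in both genotypes, in CPM on log axes with 95% Poisson intervals. Ccl8 in resident macrophages is at 954 CPM in Nr4a1-/- laser and 108 in Nr4a1-/- control, and at 1020 CPM in WT laser and 370 in WT control.

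Ccl3 and Ccl4 moved in opposite ways in neutrophils and in other macrophages. In neutrophils Ccl3 was at 1426 CPM in Nr4a1-/- laser and 98.8 CPM in Nr4a1-/- control, and at 428 CPM in WT laser and 111 CPM in WT control. The ratio was 14.4 (9.77 to 21.98) in Nr4a1-/- and 3.85 (2.88 to 5.20) in WT. Ccl4 in neutrophils was at 911 and 41.4 CPM in Nr4a1-/- laser and control and at 594 and 213 CPM in WT laser and control, with ratios of 21.99 (12.3 to 42.8) and 2.78 (2.24 to 3.48). At 2000 UMIs per cell, 29.4% and 4.94% of Nr4a1-/- laser and control neutrophils and 23.9% and 11.02% of WT laser and control neutrophils had Ccl4 RNA. The Nr4a1-/- laser value came from 49 neutrophils with a median of 1689 UMIs, of which 17 reached 2000, and neutrophil markers were lower there, at 38350.1 and 91019 CPM in Nr4a1-/- laser and control and 81683.5 and 115056 CPM in WT laser and control. With TMM scaling, under which the median log2 laser ratio of all genes in Nr4a1-/- neutrophils was -0.68 against -0.30 without it, the Ccl3 ratio was 10.1 in Nr4a1-/- and 3.13 in WT, and the Ccl4 ratio was 15.4 and 2.27. A stricter gate brought the Ccl3 ratios to 7.23 in Nr4a1-/- and 8.25 in WT. Thinning, which kept 17 Nr4a1-/- laser neutrophils, gave 2.58 and 6.82. Without the top cell the Nr4a1-/- ratio was 23.7. The direction thus held. Against 14.4 in the main run, the Nr4a1-/- Ccl3 ratio was smaller with TMM scaling, the stricter gate and thinning, and larger without the top cell. It was above the WT ratio with TMM scaling and below it with the stricter gate and after thinning. The NF-kB list did not move alike in the genotypes, at 14584 and 9818 CPM in Nr4a1-/- laser and control neutrophils and 9123 and 11134 CPM in WT laser and control neutrophils.

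In other macrophages Ccl3 was at 356 and 1270 CPM in Nr4a1-/- laser and control and at 538 and 1422 CPM in WT laser and control, a ratio of 0.280 (0.242 to 0.324) in Nr4a1-/- and 0.379 (0.350 to 0.409) in WT. Ccl4 there had ratios of 0.423 (0.391 to 0.458) and 0.455 (0.435 to 0.476), but the WT value fell short of 2-fold in 3 of the 8 settings: 0.535 with TMM scaling, 0.542 without the upper limit on detected genes and 0.541 after thinning. In Nr4a1-/- these cells were not the same mixture before and after laser. The 7 Spp1 and Gpnmb macrophage markers summed to 2638 CPM in Nr4a1-/- laser and 450.3 CPM in Nr4a1-/- control. In WT the sums were close, at 1476 CPM in laser and 1435 CPM in control. The part of the mixture in the ratios was not tested. The remaining calls rested on fewer UMIs or cells. They were Ccl7 in classical monocytes (ratio 3.04 in Nr4a1-/- and 2.41 in WT), Ccl3 in classical monocytes (2.46 and 6.44), Cxcl9 in cDC2 (0.464 and 0.284) and Ccl5 in neutrophils (0.126 and 0.105). None of these 4 was called in both genotypes once the cell with most UMIs of the ligand was left out of each lineage and library, an alternative added after the data were seen.

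Nr4a1-/- was then set against WT within laser and within control eyes by the same rule. Of 109 ligand and lineage pairs tested in both, 11 were lower in Nr4a1-/- in both and 0 were higher. A stricter gate gave 7 lower and 1 higher, and leaving out the top cell gave 10 lower and 1 higher. Over all genes, 0.596% of 51840 pairs were lower and 0.0714% higher, so lower calls prevailed there too, and the Nr4a1-/- laser library was the shallowest of the 4.

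Cxcl10 in cDC2 and in T cells kept its call under every alternative run. In cDC2 it was at 49.9 CPM in Nr4a1-/- laser and 263 CPM in WT laser, and at 84.8 CPM in Nr4a1-/- control and 416 CPM in WT control. The ratio was 0.190 (0.131 to 0.267) in laser and 0.204 (0.156 to 0.264) in control eyes. The share of cDC2 with Cxcl10 RNA at 2000 UMIs per cell was 3.12% in Nr4a1-/- laser and 10.1% in WT laser, and 12.3% in Nr4a1-/- control and 14.3% in WT control. In T cells, where the levels were low, Cxcl10 was at 14.6 CPM in Nr4a1-/- laser and 85.3 CPM in WT laser, and at 7.81 CPM in Nr4a1-/- control and 28.9 CPM in WT control, from 7, 321, 16 and 98 UMIs in that order. The ratio there was 0.171 (0.0681 to 0.356) in laser and 0.270 (0.149 to 0.462) in control eyes. In microglia, where Cxcl10 was high, it was 0.601 (0.494 to 0.726) and 0.699 (0.597 to 0.816), and in classical monocytes it was 2.16 in laser and 0.445 in control eyes, so the difference did not hold in every lineage.

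Cxcl9 in cDC2 was at 19.97 CPM in Nr4a1-/- laser and 79.4 CPM in WT laser, and at 43.0 CPM in Nr4a1-/- control and 280.1 CPM in WT control, a ratio of 0.251 (0.135 to 0.432) and 0.154 (0.105 to 0.219). It was seen in 3.92% of Nr4a1-/- laser and 7.02% of WT laser cDC2, and in 7.46% of Nr4a1-/- control and 20% of WT control cDC2. The interferon response list of 10 genes summed to 407 CPM in Nr4a1-/- laser and 622 CPM in WT laser cDC2, and to 190 CPM in Nr4a1-/- control and 680 CPM in WT control cDC2, with 3 of 10 and 4 of 6 genes tested at least 2-fold lower and 0 higher, where 5.59% and 2.43% of all genes tested in cDC2 were lower. In T cells the list summed to 639 CPM in Nr4a1-/- laser and 497 CPM in WT laser, and to 329 CPM in Nr4a1-/- control and 360 CPM in WT control, with 2 of 7 genes tested lower in laser and 1 of 10 in control eyes and 0 higher in both, where 11.99% and 2.95% of all genes tested in T cells were lower. Whether the list and the ligands moved for 1 reason was not tested.

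**Figure D5:**
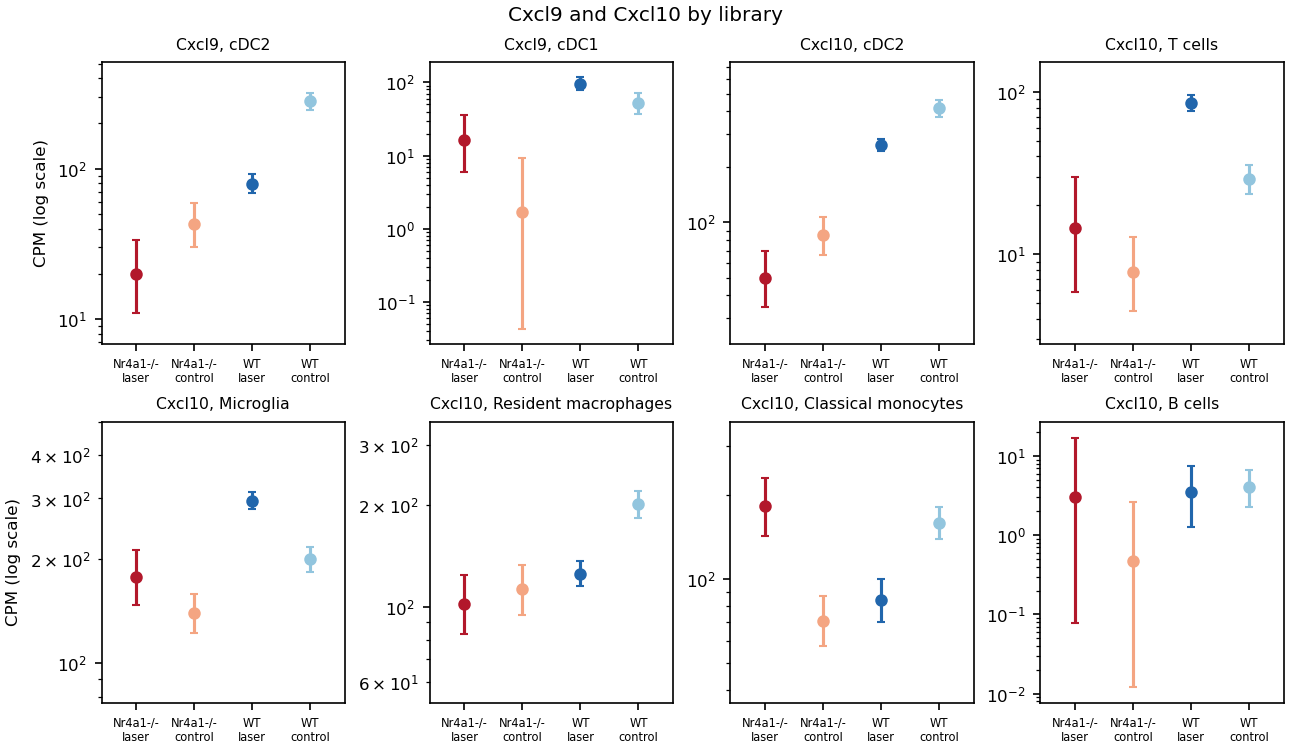
Levels of the CXCR3 ligands Cxcl9 and Cxcl10 by lineage and library, in CPM on log axes with 95% Poisson intervals. Cxcl10 in cDC2 is at 49.9 CPM in Nr4a1-/- laser and 263 in WT laser, and at 84.8 CPM in Nr4a1-/- control and 416 in WT control.

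Cxcl1 in other macrophages was at 73.6 CPM in Nr4a1-/- laser and 237 CPM in WT laser, and at 34.3 CPM in Nr4a1-/- control and 162 CPM in WT control, a ratio of 0.310 (0.231 to 0.408) in laser and 0.212 (0.120 to 0.352) in control eyes. With a stricter gate the control ratio was 1.07, so this call rested on where the gate was set. The other 7 calls were low levels from few cells: Ccl22 in microglia (0.406 in laser and 0.377 in control eyes), Ccl5 in resident macrophages (0.408 and 0.160), Ccl5 in classical monocytes (0.148 and 0.497), Cxcl9 in classical monocytes (0.212 and 0.0610), Cxcl9 in cDC1 (0.169 and 0.0322), Cxcl2 in cDC1 (0.476 and 0.469), and Xcl1 in classical monocytes, with 0 UMIs in both Nr4a1-/- libraries against 33 in WT laser and 32 in WT control. Among them Ccl5 and Xcl1 are ligands of NK cells, found here in 0% to 11.4% of the cells named. The control ratio of Ccl5 in classical monocytes was 2.33 with a stricter gate, and that of Cxcl2 in cDC1 was 2.28 without the top cell, so the direction of these calls did not hold.

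RNA of the receptors was placed by the same lineage test. Ccr2 was higher in classical monocytes (752, 817, 611 and 681 CPM in Nr4a1-/- laser, Nr4a1-/- control, WT laser and WT control, edgeR adjusted p = 1.13e-13), and also in cDC2 (adjusted p = 3.20e-09), other macrophages (adjusted p = 7.70e-07) and resident macrophages (adjusted p = 1.52e-05). Ccr1, the receptor of Ccl6 and Ccl9, was at 368, 551, 483 and 617 CPM in neutrophils (adjusted p = 4.57e-20). It was also higher in resident macrophages (adjusted p = 4.10e-16), classical monocytes (adjusted p = 4.22e-11), other macrophages (adjusted p = 4.13e-08) and cDC2 (adjusted p = 5.45e-08). Cxcr3 was higher in T cells (47.8, 16.1, 46.5 and 32.4 CPM, adjusted p = 3.65e-14) and in cDC1 (adjusted p = 3.26e-11), and also in NK cells (adjusted p = 0.00262) and resident macrophages (adjusted p = 0.0240). Cxcr6, the receptor of Cxcl16, was at 106 and 31.2 CPM in Nr4a1-/- laser and control T cells and at 208 and 56.3 CPM in WT laser and control T cells (adjusted p = 4.97e-26 for T cells against the mean of the others), and it was also higher in NK cells (adjusted p = 0.00437). By the 2-fold rule for laser against control, chemokine receptors in T cells gave 3 of 8 tested higher in Nr4a1-/- and 4 of 12 in WT, with 0 lower, where 2.78% and 5.21% of all genes tested in T cells were higher. Higher receptors were not limited to T cells. In microglia Ccr1 was at 84.5 and 32.9 CPM in Nr4a1-/- laser and control and at 88.2 and 18.0 CPM in WT laser and control. Cxcr2, Xcr1 and Ccr7 had been used to gate neutrophils, cDC1 and migratory DC and are not given as results.

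The 9 ligands with fewer than 200 UMIs rested on few cells. Ccl11, an eosinophil attractant, had 152 UMIs in 8 cells, of which 1 held 53.9%, and 95.4% of its UMIs were in cells that met no gate. Cxcl12, known from stromal cells, had 167 UMIs, 42.5% of them in such cells. Cxcl13, the B cell attractant, had 73 UMIs in 9 cells, with 95.9% in resident macrophages. Ccl1 had 64 UMIs with 68.8% in 1 cell, and Cxcl5 had 21 UMIs in 2 cells of WT laser. Ccl27a had 172 UMIs, Cx3cl1, the ligand of the microglial receptor Cx3cr1, had 67, Ccl26 had 65 and Ppbp, a platelet chemokine, had 26. None of these but Ccl26 separated 1 lineage from the next beyond the range over libraries.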

How the data were processed

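The deposited files held raw UMI counts per gene (32285 rows) and per antibody tag (87) for each cell of 4 libraries, which the authors made with Cell Ranger 7.0.1 on mm10, per the labels and methods. The labels name the v2 kit and the methods v3, and by its number the Nr4a1-/- control library was numbered apart from the remaining 3, which cannot be told apart from that condition. The ligands and gene lists were chosen with earlier results of these data known. The study's cell filter was applied (200 to 5000 genes, mitochondrial share no higher than 15%). Each cell was scored on fixed marker lists and gated where 2 or more markers of a list had a UMI and its score was 1.5 times that of the next list; cells between lists stayed ungated, which stood in for doublet removal, as no doublet caller was run. Lineages needed 20 cells per library. Lineage sums were tested with edgeR 4.0.16 (TMM, quasi-likelihood, Benjamini-Hochberg over 10558 genes, library as a block, 40 sums). Conditions were compared as CPM ratios with exact conditional binomial 95% intervals and shares of cells with exact Clopper-Pearson ones, which cover counting error only; there was no test. Library sizes ran between 7848548 and 38052948 UMIs. Alternatives were RLE scaling, DESeq2 1.42.0, no filter, a minimum of 50 cells, a stricter gate (2 times the next list), leaving out each library, thinning to 2000 UMIs, a mitochondrial limit of 10%, no upper gene limit, TMM scaling, a minimum of 50 UMIs and, added after seeing the data, leaving out the top cell. Ligands with 20 or more UMIs were placed in role groups; those with 200 or more were named with lineage values, those called the same way in both pairs with values by library, and the remaining 9 by their totals. Promoters came from RefSeq (GRCm38.p6), with 22 of 31 ligands matched. Some items are not reported here. Coordinates of genes are those of GRCm38, looked up by gene ID.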

Additional observations from a re-analysis of the deposited data

Results flagged for a closer look

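Several ratios came in pairs whose counting intervals lay on opposite sides of 1. The difference between the pairs was not tested, since each condition had 1 library, and the laser and genotype ratios share their libraries, so each library that stands apart enters both.

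Cxcl1 in resident macrophages had a laser ratio of 0.329 in Nr4a1-/- and 2.56 in WT, and correspondingly an Nr4a1-/- over WT ratio of 0.343 in laser and 2.66 in control eyes. Cxcl3 in the same cells had laser ratios of 0.207 in Nr4a1-/- and 3.65 in WT and genotype ratios of 0.228 in laser and 4.02 in control eyes, from 6 to 119 UMIs per library. Without the top cell of each library the laser ratios were 0.343 and 2.95 for Cxcl1 and 0.636 and 5.31 for Cxcl3, in Nr4a1-/- and WT.

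Cxcl9 in microglia had a laser ratio of 0 in Nr4a1-/-, from 0 and 72 UMIs, and of 8.51 in WT, and genotype ratios of 0 in laser and 14.9 in control eyes; without the top cell of each library the WT laser ratio was 2.32. It was found in 0.913% to 1.07% of microglia in the 3 libraries with any. Ccl5 in cDC1 had laser ratios of 0.182 in Nr4a1-/- and 2.86 in WT, and Ccl5 in B cells 3.55 in Nr4a1-/- and 0.175 in WT. Without the top cell the Nr4a1-/- ratios were 1.18 and 0.861, so 1 cell decided the direction of either. Cxcl10 in classical monocytes had an Nr4a1-/- over WT ratio of 2.16 in laser and 0.445 in control eyes.

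Among cells that met no gate, which no comparison used, lay 95.4% of the Ccl11 UMIs and 85.7% of the Cxcl5 UMIs.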

How the results depend on the processing

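The lineage test gave 72 ligand calls higher and 60 lower. Leaving out each library in turn gave 71 to 73 and 53 to 64, and resident macrophages kept a count of 17. Without a filter on low counts, calls higher over all genes were 24798, against 15387, because more genes were tested. Laser calls in both genotypes numbered 12 and ranged between 8 and 12, but not always for the same pairs. Thinning gave 9 calls and kept 4 of the 12 main pairs, while 6 of the 12 lacked the UMIs. Leaving out the top cell gave 11 calls and kept 8 of the 12. Genotype calls in both pairs numbered 11, and were 7 with 50 UMIs required and 5 after thinning, both of which leave fewer UMIs. Of the 11 main calls, thinning kept 3 and a stricter gate kept 6. After thinning, the Nr4a1-/- laser ratio of Cxcl9 in cDC2 was 1.58. A stricter gate gave control-pair ratios of 1.07 for Cxcl1 in other macrophages and 2.33 for Ccl5 in classical monocytes. Without the top cell, the WT laser ratio of Ccl5 in neutrophils was 2.21 and the control-pair ratio of Cxcl2 in cDC1 was 2.28. The cause was not tested. No replicate could be left out of a ratio, and no paired analysis was possible because each condition had 1 library, so no replicate numbers are shared between groups. TMM scaling moved the median log2 laser ratio of all genes in Nr4a1-/- neutrophils to -0.68, against -0.30 without it. In Nr4a1-/- laser, the fewest cells and UMIs limit what could be called.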

Other observations

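Basophils and mast cells, gated on genes such as Cpa3 and Mcpt8, gave 41 cells over the 4 libraries and entered no comparison. Pooled over libraries, their Ccl4 level was 6712 CPM, above the mean of 3667 CPM in microglia. Other ligands above the highest mean of the ranked lineages were Ccl7 at 3075 CPM (resident macrophages 2283) and Ccl6 at 2447 CPM (neutrophils 1360). So were Ccl3 at 2375 CPM (microglia 1546) and Ccl9 at 1598 CPM (classical monocytes 507). Ccl2 at 2419 and Cxcl2 at 1593 CPM were below the resident macrophage means of 3367 and 5355 CPM. Non-classical monocytes numbered 3 and 5 in Nr4a1-/- laser and control, against 133 and 209 in WT laser and control. They were not ranked, and their ligands are given here in WT alone, as a sum. The summed ligand level was 1347 CPM in WT laser and 1040 CPM in WT control.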
